A study of Arabidopsis thaliana with 12 samples.

Results

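The genotype by age interaction asks, locus by locus, whether a leaf of gvs1-1 ages by the same amount as a leaf of Col. It is the log2 change from the stage called DAE14 to the stage called DAE28 in gvs1-1 minus the same change in Col. All 12 arrays of the series and all 21266 loci of the deposited locus table entered it. The groups were Col at DAE14, Col at DAE28, gvs1-1 at DAE14 and gvs1-1 at DAE28, with 3 independent biological samples each and 1 one-colour Agilent array per sample. Col is the reference ecotype of Arabidopsis thaliana, and gvs1-1 is represented by a single allele. The labels name neither the mutated locus nor the meaning of DAE. All groups were soil-grown with a day of 16 h light and 8 h dark and had been on soil for 23 days (DAE14) or 37 days (DAE28). Sampling, 5 h into the light period, took the third and the fourth leaf.

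Leaf senescence is the last phase of leaf life. NAC and WRKY transcription factors switch on genes for chlorophyll breakdown, autophagy and protein and amino acid catabolism, while genes for photosynthesis and growth are turned down, and the nitrogen released is exported to younger organs. Abscisic acid, ethylene, jasmonate and salicylic acid promote these programmes and cytokinin delays them. Ageing of a leaf also includes the end of cell division and expansion, which comes earlier and is a developmental rather than a degradative change.

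Values are the deposited log2 values of each array, and a difference of 1 is 2-fold. A negative interaction means a log2 age change in gvs1-1 that lies below that in Col, which is a smaller rise or a larger fall. A locus was called at a limma adjusted p under 0.05 over all 21266 loci. It is said to have aged alike when its interaction was not called, the 95% interval of the interaction lay within 2-fold in both directions, and the age change was called in the same direction in both genotypes. This margin is the same for every locus and can exceed the age change itself. Ageing alike therefore means a difference within 2-fold, not equal changes. Errors of differences are SE, with 3 arrays per group throughout. Leaf samples mix cell types, so fewer cells of a type and less RNA per cell cannot be told apart in any of these values.

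Age changed most of the transcriptome in both genotypes. By limma 14627 loci (68.8%) were called for age in Col, with 37.1% of all loci higher and 31.7% lower at DAE28, and 12206 (57.4%) in gvs1-1, with 31.3% higher and 26.1% lower. The genotypes differed at 36 loci (0.169%) at DAE14, 0.0658% higher and 0.103% lower in gvs1-1, and at 6389 (30.0%) at DAE28. The interaction was called at 3824 loci (18.0%), with 1762 (8.29%) higher and 2062 (9.70%) lower in gvs1-1, and 1323 of them (6.22%) differed at least 2-fold. Its 95% interval lay within 2-fold at 15477 loci (72.8%). Of these, 6727 loci (31.6% of all loci) aged alike, 3610 of them rising (17.0% of all loci) and 3117 falling (14.7%). The split of called loci moved from 46.1% higher to 56.5% higher (2016 higher and 1553 lower) when the mean of a locus's probes from the scanner files, scaled to the 75th percentile, was used.

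The interaction is built from the same arrays as both age changes, so its split by their direction is a description. Of the loci that rose in both genotypes, 1210 had a lower and 38 a higher interaction. Of those that fell in both, 1014 had a higher and 20 a lower one. A further 688 loci that rose in Col and were not called for age in gvs1-1 had a lower interaction, and 486 that fell in Col alone by the same test had a higher one. In 170 loci the rise was called in gvs1-1 alone with a higher interaction, and in 105 the fall was called in gvs1-1 alone with a lower one. Age changes called in opposite directions were rare, with 87 loci (0.409%). Across the 21266 loci the age changes of the genotypes correlated at Pearson r = 0.897, a value across genes, which are not independent replicates.

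**Figure D1:**
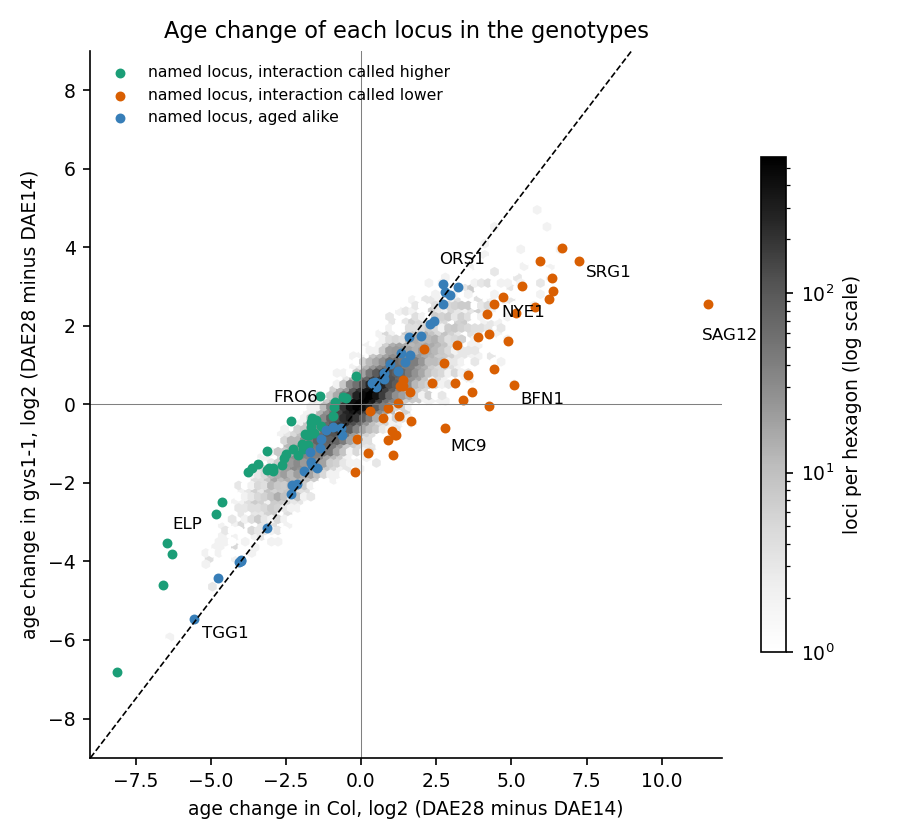
Age change of each locus in Col (x axis, log2 DAE28 minus DAE14) against the age change in gvs1-1 (y axis, same unit), with grey hexagons for the number of loci on a log scale, coloured points for named loci by class, and a dashed line where both changes are equal. Most loci follow the line, loci with a lower interaction such as BFN1 and SRG1 lie below it on the right, and loci with a higher one such as ELP and FRO6 lie above it on the left.

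To put 1 number on the size of ageing, the log2 age changes were summed over the 2242 rising and 2529 falling loci that passed for stage alone with at least a 2-fold change. The sum in gvs1-1 was 0.704 of that in Col (exact permutation of genotype within stage, two-sided p = 0.04, smallest possible p 0.005 over 400 arrangements). The p was 0.05, no longer under the threshold, without Col DAE14 replicate 1 or 3 or gvs1-1 DAE14 replicate 2 or 3. The ratio was 0.642 for the rising and 0.764 for the falling loci. Among the rising loci the median change was 1.88 in Col and 1.24 in gvs1-1. The change was numerically smaller in gvs1-1 at 84.8% of them, 965 had an interaction called in that direction and 592 aged alike. Among the falling loci the medians were -1.82 and -1.37, the change was smaller at 82% of them, 774 were called so and 1059 aged alike.

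The arrays themselves show the gap as a level at DAE28. Over the rising loci the mean log2 value relative to Col at DAE14 was 2.22, 2.29 and 2.28 on the Col DAE28 arrays and 1.63, 1.59 and 1.45 on the gvs1-1 DAE28 arrays. Over the falling loci it was -2.25, -2.11 and -1.87 in Col and -1.63, -1.57 and -1.51 in gvs1-1. The genotypes did not overlap at DAE28 in either score. At DAE14 the gvs1-1 arrays lay at -0.10, 0.22 and 0.20 over the rising loci and at 0.17, -0.05 and -0.07 over the falling loci, on both sides of the Col mean.

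**Figure D2:**
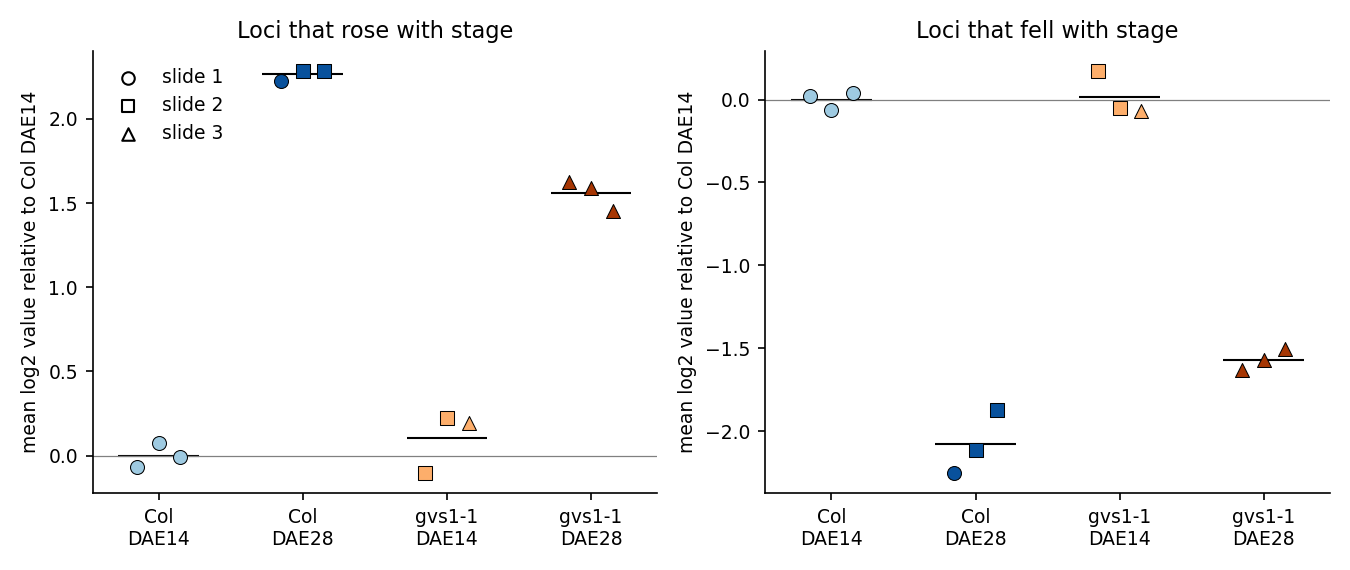
Mean log2 value per array relative to the Col DAE14 mean (y axis) over the loci that rose (left) and fell (right) with stage, by group (x axis), with marker shape for slide and a bar for the group mean. Among rising loci the Col DAE28 arrays sit at 2.22 to 2.29 and the gvs1-1 DAE28 arrays at 1.45 to 1.63, and the DAE14 arrays of both genotypes lie near 0.

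Slides and scan days were unevenly shared by the groups. All Col DAE14 arrays and 1 Col DAE28 array were on slide 1, the other Col DAE28 arrays and 2 gvs1-1 DAE14 arrays on slide 2, and 1 gvs1-1 DAE14 array and all gvs1-1 DAE28 arrays on slide 3. No slide held all 4 groups. Slides 1 and 3 were scanned on one day and slide 2 on another, so a value within the first day rests on 1 Col DAE28 and 1 gvs1-1 DAE14 array. With slide as a block 753 loci were higher, 633 were lower and 4801 aged alike. All 3824 loci called without the block kept the sign of their interaction with it, and 1049 of them were called again. The estimate of each locus with the slide block equals the estimate within the first scan day. Those arrays are a part of the arrays on which the loci were called, so the kept sign is no independent check. Of 251 called members of the gene lists described below, 140 were called with the block and 111 were not. For a named locus the block's value, or the range of several, is given where it ends or adds a call or moves a called value by over 1.5 times, and for an uncalled one where it also moves by more than 0.5 on the log2 scale.

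Senescence-associated genes, the classical markers that are switched on in dying leaves, rose in both genotypes and by less in gvs1-1. All 18 rose in Col and 17 rose in gvs1-1, with median age changes of 3.02 and 2.19 on the log2 scale. The interaction was lower at 7 and higher at 0 of the 18, against 9.70% lower over all loci, and 3 aged alike. The median interaction was -1.06, against 0.01 over all loci, and -1.1 with slide as a block, where 7 were lower and 1 aged alike. This list and those that follow are given as counts, since their members were chosen with earlier results known. The counts are to be read against the shares over all loci, 8.29% higher, 9.70% lower and 31.6% ageing alike.

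SAG12 (AT5G45890), a vacuolar cysteine protease gene, was not well above background at DAE14 in either genotype, so its levels at DAE28 are the informative ones. They were 17.32, 17.22 and 17.23 in Col and 10, 8.6 and 5.95 in gvs1-1. The highest gvs1-1 array lay far below the lowest Col array, and the 3 gvs1-1 samples were spread over a range that the Col samples did not show. The genotype difference at DAE28 was -9.07 (limma adjusted p = 4.2e-05).

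BFN1 (AT1G11190), a senescence nuclease that degrades RNA and single-stranded DNA, read 6.67, 6.60 and 6.84 in Col at DAE14 and 10.49, 11.73 and 13.18 at DAE28. In gvs1-1 it read 7.06, 7.16 and 6.76 and then 8.03, 7.59 and 6.85. All Col DAE28 arrays stood above every other array, and the gvs1-1 stages overlapped. The interaction was -4.60 ± 0.73 (limma adjusted p = 0.0029), and -3.06 with slide as a block. SRG1 (AT1G17020), an oxidoreductase gene named for senescence, rose from 6.12, 6.34 and 5.95 to 12.93, 13.32 and 13.95 in Col and from 6.21, 7.54 and 7.44 to 11.16, 10.90 and 10.08 in gvs1-1. Here both genotypes rose on every array, and the interaction was -3.61 ± 0.54 (limma adjusted p = 0.0022).

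Other members of the list show how uneven the gap was. SAG15, which encodes the plastid protease regulator ClpD, had an interaction of -1.38 and SAG113, a phosphatase gene of abscisic acid signalling, one of -2.17, both called. SAG13 (-3.11 ± 1.12, limma adjusted p = 0.078) and SAG29 (-2.14 ± 0.80, limma adjusted p = 0.088) missed the threshold with wide intervals. SAG29 was not well above background on all arrays. Its value was -0.62 with slide as a block (adjusted p = 0.75) and was called without Col DAE28 replicate 1 (-2.80, adjusted p = 0.012). SAG18 and SAG101, a lipase-like immune regulator, aged alike. SAG20 rose by 2.43 in Col and 2.12 in gvs1-1 and was in the alike class at -0.31, but this depended on the setting. It was -1.04 with slide as a block (adjusted p = 0.078), was called with that value within the first scan day (adjusted p = 0.032) and was called in quantile-normalized scanner values (-0.90, adjusted p = 0.04). SEN1, a dark-inducible marker, had an age change of 1.8 in Col and 2.5 in gvs1-1, and its interaction changed sign from 0.70 to -0.60 with slide as a block and was called in neither.

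Among 34 senescence transcription factors 28 rose in each genotype. The interaction was lower at 13, higher at 1 and within the alike class at 8, with medians of 2.16 in Col and 1.33 in gvs1-1. With slide as a block 7 were lower and 0 higher, and the median interaction went from -0.66 to -0.76. The loci with lower interactions included several NAC genes that abscisic acid and jasmonate induce, NAC055 (-3.03), NAC019 (-2.77) and NAC047 (-2.00), the abscisic acid-responsive regulator MYB2 (-2.35), and WRKY75 (-2.28), WRKY45 (-1.69) and WRKY6 (-1.47). Of these NAC055 was not called with the block (-2.74, adjusted p = 0.064). WRKY75 was not well above background on all arrays. It was not called in scanner values scaled to the 75th percentile (-3.33, limma adjusted p = 0.11). The 1 higher locus was EIL1, an ethylene signalling factor, which fell by 1.13 in Col and was at -0.36 in gvs1-1. Its interaction went from 0.78 to 0.74 with the block and was not called there (adjusted p = 0.11).

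NAC047 (AT3G04070) read 6.60, 6.58 and 6.46 at DAE14 and 11.27, 11.03 and 11.51 at DAE28 in Col, and 6.23, 6.60 and 6.56 and then 9.55, 9.15 and 8.88 in gvs1-1. The DAE14 arrays of the genotypes overlapped, the DAE28 arrays did not, and the interaction was -2.00 ± 0.25 (limma adjusted p = 0.0012). NAP (AT1G69490), a NAC factor that promotes chlorophyll loss, rose from 11.33, 10.76 and 10.73 to 15, 15.08 and 15.31 in Col and from 11.10, 10.88 and 10.77 to 13.56, 13.21 and 12.86 in gvs1-1. Its interaction of -1.90 ± 0.28 (limma adjusted p = 0.0021) was -1.62 and not called with slide as a block (adjusted p = 0.055). ORE1, a NAC regulator of age-dependent cell death, missed the threshold (-1.58 ± 0.83, limma adjusted p = 0.21), and so did WRKY53 (-0.62 ± 0.64, limma adjusted p = 0.53), an early senescence regulator.

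The factors that aged alike make a contrast within the same list. ORS1 (AT3G29035), a NAC paralogue of ORE1 that also promotes senescence, read 8.90, 8.63 and 7.88 and then 11.80, 11.57 and 11.67 in Col, and 8.53, 8.42 and 8.95 and then 11.79, 11.53 and 11.51 in gvs1-1. The arrays of the genotypes overlapped at both stages, and the interaction was -0.24 with a 95% interval of -0.94 to 0.47. EIN3, the ethylene signalling factor, rose by 0.69 and 1.1, with an interaction of 0.41 that was -0.29 with slide as a block, and the abscisic acid-response factors ABF3 (1.28 and 1.22) and ABF4 (1.00 and 1.13) rose in both genotypes and aged alike.

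Chlorophyll breakdown, the step that makes ageing leaves yellow, was split between enzymes. Of 14 genes 6 were lower, 1 was higher and 2 aged alike, with median age changes of 1.66 in Col and 0.95 in gvs1-1. In the fit with slide 6 were lower and 0 higher, and the median interaction went from -0.71 to -0.85. NYC1 (AT4G13250), a chlorophyll b reductase, rose from 12.60, 12.55 and 12.70 to 16.72, 16.26 and 16.51 in Col and from 12.74, 12.67 and 12.67 to 14.72, 14.53 and 13.99 in gvs1-1. NYE1 (AT4G22920), the stay-green protein that removes magnesium from chlorophyll, rose from 10.16, 10.22 and 10.11 to 14.61, 14.43 and 14.70 in Col and from 9.60, 9.72 and 10.27 to 12.60, 12.40 and 12.28 in gvs1-1. In both genes the DAE28 arrays of the genotypes were apart and the DAE14 arrays were close, with interactions of -2.16 ± 0.24 and -1.86 ± 0.23 (limma adjusted p = 0.00093 and 0.0012). Its homologue NYE2 (-2.10), the pheophytinase PPH (-1.20), the pheophorbide oxygenase PAO (-0.90) and the catabolite esterase MES16 (-1.63) were also lower. With the block PAO was at -1.38, still called, and MES16 at -1.59, not called (adjusted p = 0.052). HCAR, which converts chlorophyll b derivatives onward, and RCCR, a late reductase of the pathway, fell in both genotypes and aged alike. CLH2, a chlorophyllase-like gene, had a higher interaction (0.80) that was not called with slide as a block (0.89, adjusted p = 0.096).

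**Figure D3:**
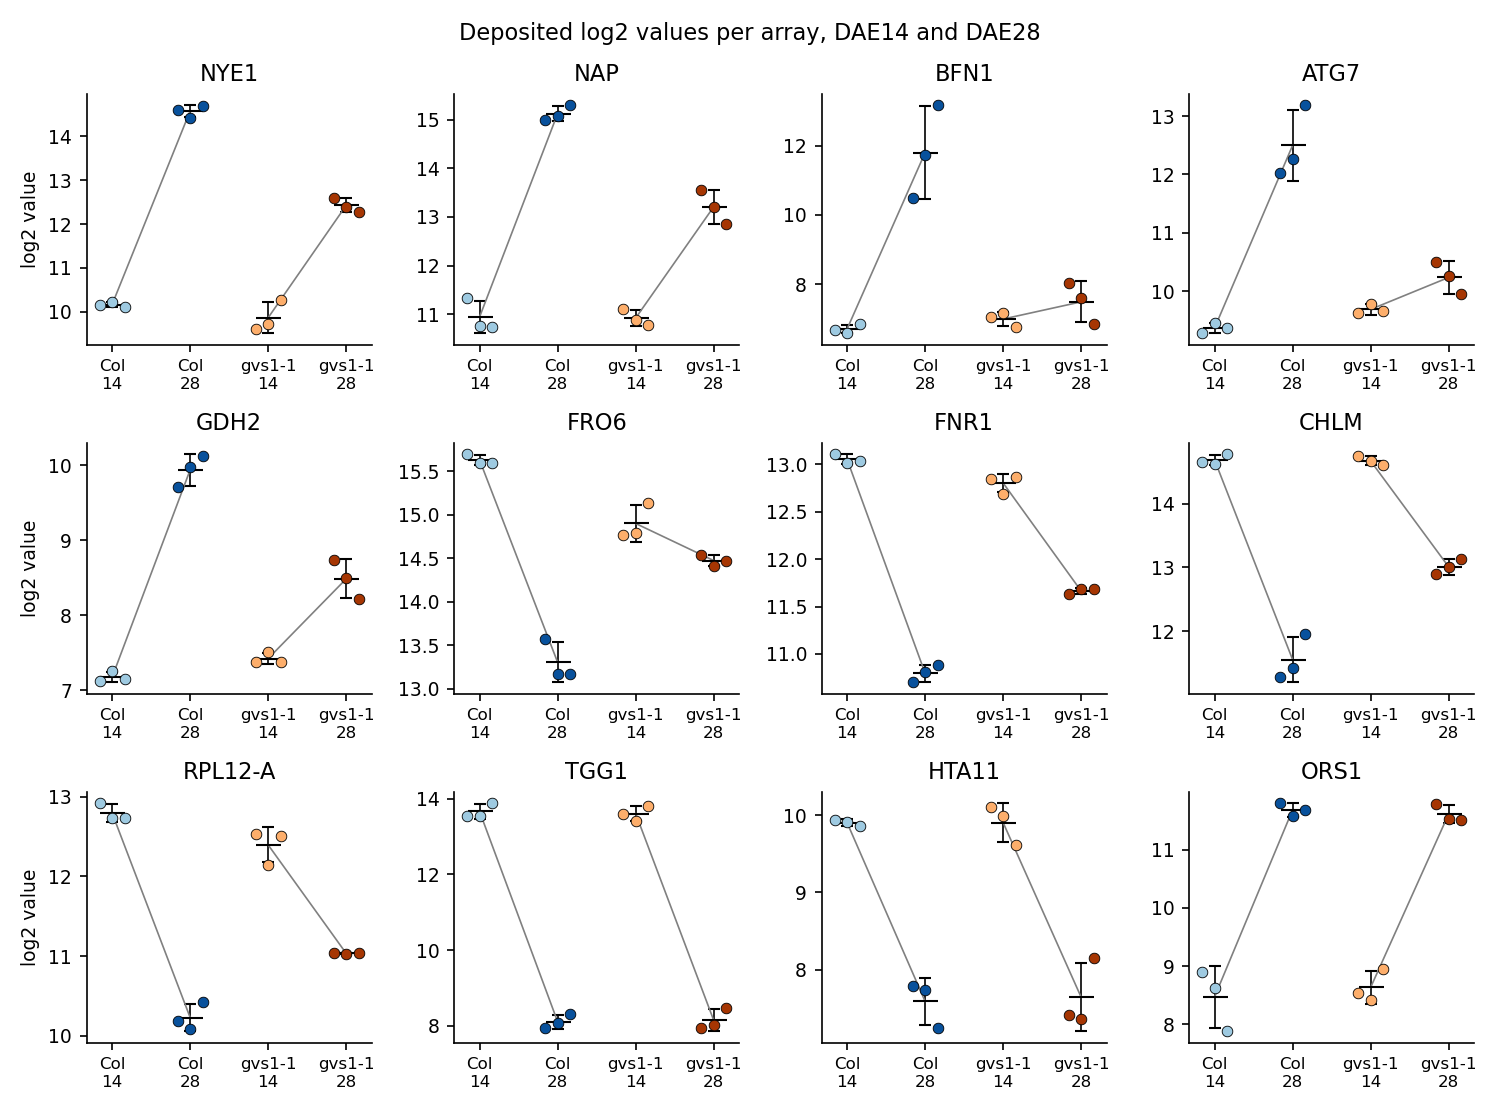
Deposited log2 value (y axis) of 12 loci on each array, by genotype and stage (x axis, DAE14 and DAE28), with points for arrays, bars for group means with SD and lines joining the means of a genotype. NYE1, NAP, BFN1, ATG7 and GDH2 show a lower DAE28 level in gvs1-1, FRO6, FNR1, CHLM and RPL12-A a higher one, and TGG1, HTA11 and ORS1 similar levels in both genotypes.

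Autophagy, which delivers cytoplasm and plastid material to the vacuole, rose in both genotypes. Of 25 genes 23 rose in Col and 19 in gvs1-1, with medians of 1.05 and 0.57. The interaction was lower at 12 and higher at 0, and 10 aged alike, and with slide as a block 3 were lower and 7 aged alike. ATG7 (AT5G45900), the activating enzyme of both conjugation systems, rose from 9.28, 9.46 and 9.37 to 12.03, 12.27 and 13.19 in Col and read 9.62, 9.79 and 9.66 and then 10.50, 10.26 and 9.95 in gvs1-1. ATG8H (AT3G06420), one of the ubiquitin-like proteins that coat the autophagosome, rose from 9.96, 9.78 and 9.94 to 12.66, 13.39 and 14.31 in Col and read 10.31, 10.32 and 10.29 and then 11.10, 11.14 and 10.89 in gvs1-1. Stages did not overlap in either genotype, the gvs1-1 age change was not called for either gene, and the interactions were -2.58 ± 0.35 and -2.82 ± 0.42 (limma adjusted p = 0.0016 and 0.0022). ATG8A, ATG8B, ATG8D, ATG8G and ATG8I were also lower, by -1.12 to -0.78, and of these 5 ATG8A alone was called with slide as a block, the others lying at -0.98 to -0.62 (adjusted p = 0.099 to 0.16). ATG8C and ATG8F aged alike. The lipid kinase VPS34 (0.76 and 0.79), ATG5 (0.73 and 0.43) and ATG12A (0.77 and 0.73) rose in both genotypes and aged alike.

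Nitrogen remobilisation had one of the widest gaps between list medians, 1.4 in Col and 0.09 in gvs1-1. Of 24 genes 15 rose in Col and 10 in gvs1-1; the interaction was lower at 7 and higher at 1, and 2 aged alike. Under the slide block 4 were lower and 1 higher. The median interaction was -0.54. GDH2 (AT5G07440), a glutamate dehydrogenase that releases ammonium from glutamate, rose from 7.12, 7.25 and 7.15 to 9.71, 9.98 and 10.13 in Col and from 7.38, 7.51 and 7.38 to 8.74, 8.50 and 8.22 in gvs1-1. Its interaction was -1.70 ± 0.20 (limma adjusted p = 0.00098). NRT1.5 (AT1G32450), a nitrate transporter of vascular tissue, read 8.80, 9.15 and 8.83 and then 10.37, 10.44 and 10.97 in Col, but 8.82, 8.51 and 9.09 and then 8.22, 8.50 and 8.41 in gvs1-1. Every Col array was higher at DAE28 and every gvs1-1 array was lower, with an interaction of -2.10 ± 0.26 (limma adjusted p = 0.0012). Cytosolic glutamine synthetases, which reload ammonium for export, were lower for GLN1;2 (-0.80), GLN1;3 (-1.01) and GLN1;4 (-1.90), while GLN1;1 missed the threshold (-0.98 ± 0.36, limma adjusted p = 0.08). With the block GLN1;3 was called, and GLN1;2 (-0.60, adjusted p = 0.15) and GLN1;4 (-1.35, adjusted p = 0.13) were not. GDH1, another glutamate dehydrogenase, fell by 1.05 in Col, was at -0.20 in gvs1-1 and was the 1 higher locus, at 0.85 without and 1.28 with the block. The urea transporter DUR3 rose by 1.62 and 1.25 and aged alike.

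ASPGB1 (AT3G16150), an asparaginase gene, had a large interaction with a wide spread among the Col DAE28 arrays. It read 8.35, 12.84 and 13.04 on the Col DAE28 arrays and between 6.83 and 7.27 on all other arrays. The interaction was -4.31 ± 1.31 (limma adjusted p = 0.044), and the call was lost when any 1 of 11 arrays was left out. Its size stayed large when single arrays were left out, at -5.84 to -3.49. Without the low Col DAE28 array it was -5.84 (adjusted p = 9.9e-07). That array is the Col DAE28 array on slide 1, and with slide as a block the interaction was -1.03 (adjusted p = 0.038).

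Amino acid catabolism feeds respiration once sugars run low. Of 25 genes 19 rose in Col and 16 in gvs1-1, with medians of 0.86 and 0.39; 10 were lower, 1 was higher and 8 aged alike, and with slide as a block 7 were lower and 1 higher. LKR/SDH of lysine breakdown (-2.23), the aminotransferase PYD4 (-1.88), TAT7 of tyrosine breakdown (-1.51) and the proline dehydrogenase PRODH (-1.29) were among the lower loci. The block left LKR/SDH called and PYD4, TAT7 and PRODH at -1.47, -1.35 and -1.57 and not called (adjusted p = 0.21, 0.085 and 0.08). BCE2 (AT3G06850), a subunit of the branched-chain ketoacid dehydrogenase, rose from 8.76, 8.74 and 8.79 to 9.41, 9.69 and 9.84 in Col and read 8.91, 8.95 and 8.96 and then 8.93, 8.80 and 8.78 in gvs1-1. Stages did not overlap in Col and overlapped in gvs1-1, with an interaction of -0.98 ± 0.15 (limma adjusted p = 0.0022). IVD, the isovaleryl-CoA dehydrogenase of leucine breakdown, rose by 1.46 and 1.08 and was in the alike class. Its interaction was -0.38 with a 95% interval of -0.73 to -0.024, which lies below 0. The class therefore marks a difference within 2-fold here, not an equal rise. The glutamate decarboxylase GAD2 fell by 0.89 in Col and was at -0.08 in gvs1-1 (interaction 0.81 ± 0.13, limma adjusted p = 0.0029).

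Peroxisomal fatty acid oxidation, which turns membrane lipid into respiratory substrate, had 45% of members ageing alike and 25% called. Over all loci these shares were 31.6% and 18.0%. Of 20 genes 4 were lower, 1 was higher and 9 aged alike, with medians of 0.89 and 0.52. The slide block left 4 lower, 1 higher and 0 ageing alike. ACX2, an acyl-CoA oxidase (-1.81 ± 0.22, limma adjusted p = 0.0012), and the thiolase KAT2 of this pathway (-1.06) were lower, while AIM1 (0.82 and 0.83) and ACX4 (1.4 and 0.92) aged alike. ACX4 was called lower with slide as a block (-0.95, adjusted p = 0.022), and AIM1 went from 0.01 to -0.68 without a call. PMDH2, a peroxisomal malate dehydrogenase that also serves photorespiration, was the higher locus (1.09 ± 0.19, limma adjusted p = 0.0042). In the list of alternative respiration 3 of 12 were lower, 1 was higher and 3 aged alike, and 2 were lower and 1 higher with the block. BAC2 (AT1G79900), a mitochondrial carrier of basic amino acids, rose from 7.11, 7.11 and 7.03 to 13.65, 13.48 and 14.15 in Col and from 6.86, 6.96 and 7.30 to 11.43, 11.34 and 10.29 in gvs1-1 (interaction -2.69 ± 0.39, limma adjusted p = 0.002). The alternative oxidase AOX1A (-0.92 ± 0.17, limma adjusted p = 0.0055) lost its call with slide as a block (-0.83, adjusted p = 0.073).

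Photosynthesis genes mostly fell with age, and their interactions were mostly higher in gvs1-1. Of 22 light-harvesting antenna genes 21 fell in Col and 17 in gvs1-1, and of 31 photosystem subunits 30 fell in Col and 22 in gvs1-1. Of the 22 light-harvesting antenna genes 15 were higher and 0 lower, against 8.29% higher over all loci, and of the 31 photosystem subunits 22 were higher and 0 lower. The antenna medians were -1.83 in Col and -0.80 in gvs1-1, and the photosystem medians -1.66 and -0.78. The median genotype differences of these lists were -0.03 and -0.05 at DAE14, and 0.97 and 0.86 at DAE28. The counts were 16 and 25 higher with slide as a block, and the median interactions went from 1.1 to 1.53 and from 0.91 to 1.15. The antenna value moved with the normalization, and the cause was not tested. In scanner values after quantile normalization its median interaction was 0.66 with 6 called, and in scanner values scaled to the 75th percentile it was 1.4 with 17 called.

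LHCB2.2 (AT2G05070), a chlorophyll-binding protein of the main antenna of photosystem II, fell from 13.42, 13.63 and 13.47 to 9.29, 9.62 and 10.33 in Col and from 13.03, 13.11 and 13.30 to 11.23, 11.59 and 11.47 in gvs1-1. Its interaction of 2.05 ± 0.30 (limma adjusted p = 0.0021) was 0.21 in quantile-normalized scanner values, and those of CAB1 (1.29 ± 0.27) and RBCS1A (0.84 ± 0.24) were 0.07 and 0.24 there. LHCA3 (AT1G61520), of the photosystem I antenna, fell from 15.86, 15.86 and 15.80 to 13.97, 14.25 and 14.31 in Col and from 15.65, 15.67 and 15.84 to 15.16, 15.04 and 15.19 in gvs1-1. The DAE28 arrays were apart for both genes. At DAE14 the genotypes overlapped for LHCA3 but not for LHCB2.2, which lay lower in gvs1-1 (-0.36, limma adjusted p = 0.4). The LHCA3 interaction was 1.08 ± 0.14 (limma adjusted p = 0.0015) and 0.23 in the quantile-normalized scanner values. LHCB1.5 fell by 0.87 in Col and was at 0.07 in gvs1-1. Its genotype difference was -0.46 at DAE14 and 0.47 at DAE28 (limma adjusted p = 0.066 and 0.0026). LHCA5, a minor antenna gene, fell by 1.38 and 1.11 and aged alike.

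FNR1 (AT5G66190), the ferredoxin-NADP reductase at the end of the electron transport chain, fell from 13.11, 13.01 and 13.04 to 10.70, 10.81 and 10.88 in Col and from 12.85, 12.69 and 12.87 to 11.63, 11.68 and 11.68 in gvs1-1. No arrays of the genotypes overlapped at either stage. The gvs1-1 level was lower at DAE14 (-0.25, limma adjusted p = 0.17) and higher at DAE28 (0.87). The interaction was 1.12 ± 0.12 (limma adjusted p = 0.00082), with 1.13 in quantile-normalized scanner values. PSAP (AT2G46820), a thylakoid membrane protein that the annotation lists as PSI-P, fell by 3.44 in Col and 1.53 in gvs1-1 (interaction 1.91 ± 0.26, limma adjusted p = 0.0016). Its genotype difference was -0.74 at DAE14, not called (limma adjusted p = 0.11), and 1.17 at DAE28. PSAE-1 of photosystem I (1.22), the plastocyanin PETE1 (1.3) and PSBQA of the oxygen-evolving complex (1.24) were higher as well. The PSAE-1 genotype difference was -0.38 at DAE14, not called (limma adjusted p = 0.12), and 0.84 at DAE28. The Rieske protein PETC and the ATP synthase subunits ATPC1 and ATPD had values of 0.66, 0.62 and 0.89 and were not called. Slide as a block put them at 1.15, 1.13 and 1.84, and they were called there (adjusted p = 0.034, 0.017 and 0.012). No member of this list aged alike.

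Carbon fixation and photorespiration followed the same direction. Of 20 Calvin cycle and related genes 13 were higher, 0 lower and 2 aged alike, with medians of -2.35 and -1.41. Of 14 photorespiration genes 10 were higher, 0 lower and 1 aged alike, with medians of -1.76 and -0.98. Under the slide block 12 and 7 were higher. PRK (AT1G32060), the phosphoribulokinase that regenerates the CO2 acceptor, fell from 13.17, 12.95 and 13.01 to 9.58, 10.07 and 10.35 in Col and from 12.90, 12.56 and 12.97 to 11.22, 11.17 and 11.19 in gvs1-1 (interaction 1.43 ± 0.24, limma adjusted p = 0.0039). GLU1 (AT5G04140), the glutamate synthase that recovers photorespiratory ammonium, fell from 14.66, 14.40 and 14.42 to 11.89, 12.01 and 12.07 in Col and from 14.28, 14.03 and 14.22 to 13.06, 12.97 and 12.73 in gvs1-1 (interaction 1.24 ± 0.16, limma adjusted p = 0.0015). In both genes all 4 groups were apart from one another except the DAE14 groups, which overlapped for PRK and did not for GLU1. The epimerase RPE fell by 0.93 and 0.58 and aged alike, as did the transketolase TKL1. RPE was called higher in scanner values scaled to the 75th percentile (0.64, limma adjusted p = 0.018).

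Chlorophyll synthesis was more mixed. Of 24 genes 23 fell in each genotype, 9 were higher, 1 was lower and 8 aged alike, with medians of -1.94 and -1.54. With slide as a block 10 were higher and 0 lower, and the median interaction went from 0.66 to 1.00. The higher loci included the methyltransferase CHLM (AT4G25080, 1.47 ± 0.21, limma adjusted p = 0.0021), the chelatase regulator GUN4 (1.44), the oxidoreductases PORB (1.76) and PORC (1.23), the oxygenase CAO (0.96) and the rate-setting glutamyl-tRNA reductase HEMA1 (1.00). CHLM fell from 14.66, 14.62 and 14.78 to 11.28, 11.43 and 11.96 in Col and from 14.74, 14.67 and 14.60 to 12.89, 13.00 and 13.14 in gvs1-1, with overlap at DAE14 and none at DAE28. HEMB1, HEMC, HEMD and HEME2, which act before the branch to haem, aged alike, whereas HEME1 of the same stretch was higher (0.70) and lost its call with the block (0.89, adjusted p = 0.058). HEMA2, the other glutamyl-tRNA reductase, rose by 1.14 in Col, was at 0.05 in gvs1-1 and was the lower locus, at -1.09 without the block and -0.75 with it, where it was not called (adjusted p = 0.083).

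The plastid's own gene expression moved with photosynthesis. All 20 nuclear genes of plastid ribosomal proteins fell in both genotypes, 14 were higher, 0 lower and 1 aged alike, with medians of -2.60 and -1.54, and 9 were higher with slide as a block. RPL12-A (AT3G27830) fell from 12.92, 12.73 and 12.73 to 10.19, 10.08 and 10.42 in Col and from 12.53, 12.14 and 12.51 to 11.04, 11.02 and 11.04 in gvs1-1 (interaction 1.21 ± 0.17, limma adjusted p = 0.002). Its genotype difference was -0.40 at DAE14, not called (limma adjusted p = 0.15), and 0.81 at DAE28. Among 56 loci encoded in the plastid genome, a list added after the data were seen, 33 were higher, 0 lower and 5 aged alike, with medians of -1.56 and -0.74, and 29 were higher with slide as a block. Their probes were not matched to the scanner files here, so signal over background was not checked for them. Of 44 loci encoded in the mitochondrial genome 3 were higher, 0 lower and 14 aged alike, with medians of 0.07 and 0.21, and 0 were called with slide as a block. The annotation used here pairs no symbols with these organelle loci.

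**Figure D4:**
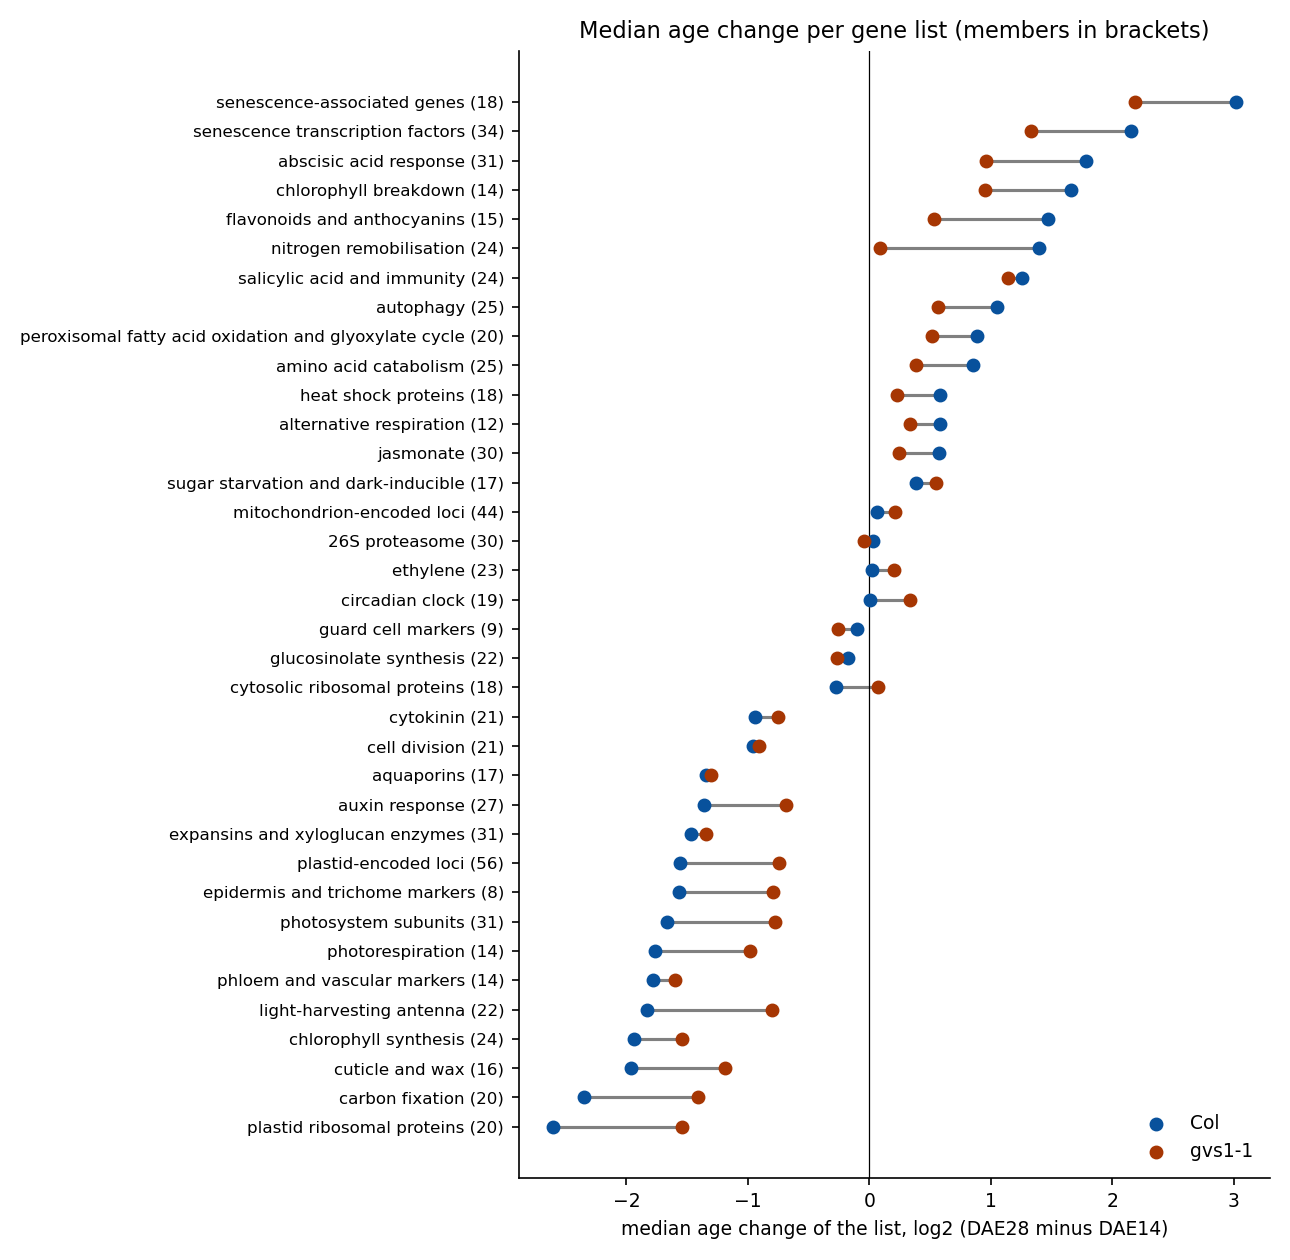
Median log2 age change of each gene list (x axis) in Col (blue) and gvs1-1 (red), with lists ordered by the Col value and the number of members in brackets. Senescence and catabolism lists lie on the right with gvs1-1 nearer 0, photosynthesis and plastid lists lie on the left with gvs1-1 nearer 0, and cell division, aquaporins and vascular markers have nearly the same medians in both genotypes.

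The cell division, cell wall and vascular lists fell in both genotypes, with 0%, 6.45% and 0% of members called for the interaction. Over all loci this share was 18.0%. Of 21 cell division genes 17 fell in Col and 18 in gvs1-1, 0 were called for the interaction by limma and 16 aged alike, against 31.6% of all loci. The medians were -0.96 and -0.91. HTA11 (AT3G54560), a histone variant gene, fell from 9.94, 9.92 and 9.86 to 7.78, 7.74 and 7.24 in Col and from 10.11, 9.99 and 9.62 to 7.41, 7.36 and 8.15 in gvs1-1, with overlap at both stages and an interaction of 0.05 (95% interval -0.62 to 0.72). PCNA1, the sliding clamp of DNA replication (-1.74 and -1.89), the replicative helicase subunit MCM2 (-1.81 and -1.72) and the mitotic kinase CDKB2;1 (-1.33 and -1.34) fell in both genotypes and aged alike. Under the slide block 12 of the list aged alike and 0 were called by limma.

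Only 11 of these 21 genes were well above background on all 12 arrays, and their counts differed between the deposited and the scanner values. In scanner values scaled to the 75th percentile the medians were -2.65 in Col and -2.34 in gvs1-1, 7 of 19 aged alike and 0 were called. Vascular markers behaved in the same way, with 0 called by limma and 9 of 14 ageing alike in the deposited values and 3 of 14 in the scanner values. Their medians were -1.78 in Col and -1.60 in gvs1-1 in the deposited values, and -3.83 and -3.34 in the scanner values. Only 8 of the 14 were well above background on all arrays. XCP2 (AT1G20850), a cysteine protease of xylem cells, had age changes of -4.05 and -4.01. Of 31 expansins and xyloglucan enzymes, which loosen growing walls, 1 was higher, 1 was lower and 10 aged alike. In the scanner values 2 aged alike, and the median interaction was 0.59 instead of 0.12. The 32.26% that aged alike in the deposited values is near the 31.6% of all loci, and 20 of the 31 were well above background on all arrays. XTH6, a xyloglucan hydrolase gene, was the higher one at 2.5 ± 0.53 (limma adjusted p = 0.01), which with slide as a block was 2.48 and not called (adjusted p = 0.12), and 0 members of the list were called there.

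The largest changes that aged alike among well-measured loci came from varied functions. TGG1 (AT5G26000), a myrosinase that cleaves glucosinolates, fell from 13.55, 13.55 and 13.89 to 7.95, 8.07 and 8.31 in Col and from 13.60, 13.41 and 13.82 to 7.93, 8.03 and 8.48 in gvs1-1. The genotypes overlapped at both stages and the interaction was 0.09 ± 0.24. Its neighbour in function, TGG2, fell by 8.11 and 6.82, and its interaction of 1.28 ± 0.36 (limma adjusted p = 0.031) was not called with slide as a block (1.09, adjusted p = 0.3). The arabinogalactan protein FLA2 (-4.77 and -4.43), the lipid transfer protein LTPG2 (-3.99 and -3.98) and the cytochrome P450 CYP96A12 (-4.01 and -3.96) fell in both. Among rises, the transcription factors RAP2.10 (2.78 and 2.87), NF-YA2 (2.95 and 2.78) and WRKY26 (2.71 and 2.56) and the gene SIS (2.72 and 3.05) aged alike. Under the block RAP2.10 went from 0.09 to -0.66, SIS from 0.33 to -0.26, CYP96A12 from 0.05 to 0.70 and LTPG2 from 0.01 to 0.55, all without a call. FLA2 had an interaction of 0.34 in the deposited values and 1.15 in quantile-normalized scanner values.

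Some lists changed little with age in either genotype. The 30 genes of the proteasome, which degrades ubiquitinated proteins, all had intervals within 2-fold, with medians of 0.03 and -0.05, 1 lower and 6 ageing alike. The 1 lower gene, PAB1, was at 10.38, 10.49 and 10.53 and then 10.72, 10.85 and 10.72 in Col and at 10.53, 10.75 and 10.64 and then 10.44, 10.46 and 10.52 in gvs1-1. It rose by 0.30 in Col, and the interaction of -0.46 ± 0.12 (limma adjusted p = 0.023) was not called with slide as a block (-0.42, adjusted p = 0.19). Of 18 cytosolic ribosomal proteins 1 was higher and 1 aged alike, with medians of -0.27 and 0.07. Of 22 glucosinolate synthesis genes 1 was lower and 3 aged alike, with medians of -0.18 and -0.27. No member of these 3 lists was called by limma with slide as a block.

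Among hormone lists, abscisic acid response had the most lower interactions. Of 31 genes 12 were lower, 0 higher and 9 aged alike, with medians of 1.79 and 0.96, and 3 were lower with slide as a block. The dehydration-responsive RD20 rose by 5.16 in Col and 2.33 in gvs1-1 (interaction -2.84 ± 0.36, limma adjusted p = 0.0013). The phosphatases that damp abscisic acid signalling were lower for HAI1, HAI2, ABI2, HAB1 and AHG3 (-2.17 to -0.85), while ABI1 of the same group aged alike (1.62 and 1.34). HAI1 is the locus also named SAG113. HAI1 and HAI2 were called with slide as a block, while ABI2 went to -0.70 (adjusted p = 0.22), HAB1 and AHG3 went to -0.74 and -0.73 and were not called (adjusted p = 0.19 and 0.2), and ABI1 went from -0.28 to -0.79 without a call. Stress-protective targets had other values. KIN1 (1.79 and 1.76) and RD29B (0.93 and 0.98) aged alike, and RD29A (2.36 and 2.69) and GOLS2 (1.90 and 3.02) were not called. With the block KIN1 went from -0.03 to -0.94, RD29B from 0.06 to -0.45 and GOLS2 from 1.13 to 0.17, none of them called. NCED3, the rate-limiting step of abscisic acid synthesis, rose by 0.96 and 0.63 and aged alike, whereas the oxidase AAO3 of the last step was lower (-0.74) and lost its call with the block (-0.63, adjusted p = 0.1).

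Ethylene, jasmonate and salicylic acid lists had 13.04%, 6.67% and 4.17% of members called, all of them lower. Over all loci 18.0% were called and 9.70% were lower. Of 23 ethylene genes 3 were lower, among them the synthesis genes ACS2 (-2.09) and ACS7 (-1.82), and receptors such as ETR1 (0.12) and EIN4 (0.21) had intervals within 2-fold. ACS7 was called with slide as a block and ACS2 was not (-2.07, adjusted p = 0.058). Of 30 jasmonate genes 2 were lower, LOX1 (-1.46) and CYP94B3 (-3.28), and 8 aged alike, and 0 were called with slide as a block, LOX1 being at -1.03 and CYP94B3 at -3.27 there. The transcription factor MYC2 rose by 1.32 and 1.3 and aged alike. Of 24 salicylic acid and immunity genes 1 was lower, 0 were higher and 2 aged alike, and 0 were called with the block. Their medians were close, 1.25 and 1.14, but single genes varied widely among arrays, so the intervals were wide. PR1, a pathogenesis-related protein, read from 7.31 to 11.78 within the gvs1-1 DAE14 group alone, and its interaction was 0.14 ± 1.55 (limma adjusted p = 0.96) and -1.81 ± 2.22 with slide as a block (adjusted p = 0.69). The median interaction of the list was 0.09 without and -0.60 with slide as a block, and that of the ethylene list 0.09 and -0.03, so neither has a settled direction.

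The auxin response list split by direction. Of 27 genes 11 were higher, 3 lower and 5 aged alike, with medians of -1.36 and -0.68, and 4 were higher and 0 lower with slide as a block. The higher ones were mostly Aux/IAA repressors, such as IAA29 (1.71), IAA17 (1.16) and IAA8 (1.03), which fell with age. IAA29 was at 1.90 and not called with the block (adjusted p = 0.091). IAA3 (AT1G04240) fell from 10.55, 10.32 and 10.88 to 9.22, 8.93 and 9.52 in Col and read 10.31, 10.27 and 10.35 and then 10.44, 10.49 and 10.63 in gvs1-1. Every gvs1-1 array was higher at DAE28 than at DAE14 and every Col array lower, with an interaction of 1.57 ± 0.23 (limma adjusted p = 0.002). GH3.5, which conjugates auxin and salicylic acid to amino acids, was lower (-2.46 ± 0.45, limma adjusted p = 0.0051), and not called with slide as a block (-2.00, adjusted p = 0.057). Of 21 cytokinin genes 2 were higher, 2 lower and 8 aged alike, and 1 was higher and 1 lower with the block. The shares without it, 19.05% called and 38.1% alike, were near the 18.0% and 31.6% over all loci. The response regulator ARR4 was higher (1.12 ± 0.17, limma adjusted p = 0.0021), and the cytokinin oxidase CKX5 (-2.13) and ARR16 (-2.13) were lower. These fell short of a call with slide as a block, at -1.27 (adjusted p = 0.13) for CKX5 and -1.23 (adjusted p = 0.48) for ARR16. AHK3, the cytokinin receptor best known for delaying leaf senescence, rose by 0.79 and 0.65 and aged alike.

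Of 19 circadian clock genes 5 were higher, 0 lower and 6 aged alike, with medians of 0.01 and 0.33, and 2 were higher with slide as a block. All samples were taken at the same hour, so a shift of phase and a change of level cannot be told apart. RVE4 (AT5G02840), a morning-expressed MYB factor, read 12.02, 12.04 and 12.07 and then 11.91, 11.84 and 11.89 in Col, and 11.98, 12.04 and 12.09 and then 12.65, 12.75 and 12.90 in gvs1-1. The DAE28 arrays of gvs1-1 lay above all others and those of Col below all others, with an interaction of 0.89 ± 0.12 (limma adjusted p = 0.0014). LHY (1.43), RVE1 (1.01), CHE (1.23) and ZTL (0.54) were the other higher genes. With the block CHE was called, LHY fell to 0.68 (adjusted p = 0.52), and RVE1 (1.09, adjusted p = 0.15) and ZTL (0.39, adjusted p = 0.28) were not called. CCA1, the partner of LHY, missed the threshold (0.79 ± 0.26, limma adjusted p = 0.056), and the evening gene TOC1 aged alike (0.91 and 0.83).

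Flavonoid and anthocyanin genes had the largest negative median of all lists. Of its members 13.33% were called, all lower, against 9.70% lower over all loci. Of 15 genes 2 were lower and 1 aged alike, the medians were 1.47 and 0.53, and the median interaction of -2.43 became -0.22 with slide as a block, with 0 called. Only 8 were well above background on all arrays. PAP1, the MYB activator of anthocyanin synthesis, rose from 7.54, 7.58 and 7.42 to 13.21, 13.80 and 14.59 in Col and from 8.61, 8.39 and 9.42 to 11.98, 12.98 and 11.12 in gvs1-1. Its interaction of -3.13 ± 0.64 (limma adjusted p = 0.0083) was -3.09 and not called with the block (adjusted p = 0.057). Of 18 heat shock genes 2 were lower, HSP90.1 (-0.78) and HSFB2A (-0.70), and 1 aged alike, and 0 were called with the block, where these were at -0.77 and -0.64. Of 17 sugar starvation genes 2 were lower, DIN2 (-3.97) and BGAL4 (-1.32), and 5 aged alike, while 3 were lower with the block. For the heat shock and sugar starvation lists the lower shares without the block, 11.11% and 11.76%, were near the 9.70% over all loci. BGAL4 was at -2.18 with it (adjusted p = 0.027) and without it lost its call when any 1 of 10 arrays was left out, at -1.43 to -1.04. The catalytic subunits KIN10 and KIN11 of the energy-sensing kinase were among those that aged alike.

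Beyond the lists, the largest interactions among well-measured loci with separated arrays were as follows on the negative side. PES1 (AT1G54570), an esterase that makes phytyl esters from chlorophyll breakdown products, rose by 6.26 in Col and 2.69 in gvs1-1 (-3.57 ± 0.50, limma adjusted p = 0.0019). The transporter ZF14 (-3.53), the protease inhibitor TI1 (-3.51), the metacaspase MC9 (-3.38), the auxin-conjugating enzyme GH3.17 (-3.38), the cytochrome P450 CYP91A2 (-3.33) and the membrane protein DMP1 (-3.30) followed BFN1, ASPGB1 and SRG1. In the fit with slide TI1 was at -2.74, GH3.17 at -1.72 and DMP1 at -1.83, and none of the 3 was called (adjusted p = 0.27, 0.13 and 0.17). MC9 (AT5G04200), a protease of xylem cell death, read 7.58, 7.63 and 7.85 and then 9.68, 10.39 and 11.34 in Col, and 7.94, 8.14 and 7.86 and then 7.82, 7.13 and 7.20 in gvs1-1. It rose on every Col array and was below every DAE14 array of gvs1-1 at DAE28 in that genotype.

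On the positive side ELP (AT1G12090), an extensin-like protein, fell from 15.64, 15.71 and 15.60 to 8.45, 9.25 and 9.87 in Col and from 15.99, 15.86 and 15.84 to 12.13, 12.29 and 12.65 in gvs1-1. The DAE28 arrays were far apart, and the interaction was 2.93 ± 0.39 (limma adjusted p = 0.0015). FRO6 (AT5G49730), a ferric reductase of leaf cells, fell from 15.70, 15.59 and 15.60 to 13.57, 13.17 and 13.17 in Col and read 14.77, 14.79 and 15.14 and then 14.54, 14.41 and 14.47 in gvs1-1. Its genotype difference at DAE14, -0.73, was not called (limma adjusted p = 0.056), and its interaction was 1.90 ± 0.18 (limma adjusted p = 0.00061). The carbonic anhydrase CA2 (2.15) and the methyltransferase HOL2 (1.95) were higher with and without the block. The growth regulators OFP15 (2.03), HBI1 (2.01) and GASA6 (1.97) were at 2.03, 2.48 and 2.08 with slide as a block and were not called there (adjusted p = 0.23, 0.062 and 0.22).

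Loci whose age change was called in opposite directions numbered 87, of which 50 fell in Col and rose in gvs1-1 and 37 did the reverse. Of the 87, 41 had a symbol and were well above background on all arrays, and the 5 of these with the largest changes all rose in Col and fell in gvs1-1. The size used was the smaller of the age changes of a locus. SWEET2 (AT3G14770), a sugar transporter of the vacuole, read 9.87, 9.85 and 9.77 and then 10.10, 10.76 and 11.81 in Col, and 9.88, 9.75 and 9.76 and then 8.33, 8.67 and 8.54 in gvs1-1 (interaction -2.35 ± 0.44, limma adjusted p = 0.006). CSD1 (AT1G08830), a cytosolic copper/zinc superoxide dismutase, changed by 0.89 and -0.92, with overlap of its stages in gvs1-1. PGSIP7, CYP71B22 and UMAMIT10 had interactions of -1.90, -1.94 and -1.71. Signs held with slide as a block at -1.75 to -1.13, and none of the 5 was called there (adjusted p = 0.084 to 0.23).

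Markers of other cell types were read beside these lists. Of 9 guard cell markers 1 was lower, 1 was higher and 2 aged alike, and their median interaction was -0.32 without and 0.04 with slide as a block. The potassium channel KAT1 of guard cells was the lower one (-1.20 ± 0.28, limma adjusted p = 0.015). It was at -1.25 with slide as a block and not called (adjusted p = 0.11), and 0 of the 9 were called. Of 8 epidermis and trichome markers 3 were higher and 0 lower, and all 8 fell in Col, with medians of -1.57 and -0.79. ATML1 (1.00 ± 0.16) and PDF2 (0.95 ± 0.16), homeodomain factors of epidermal identity, fell in both genotypes and by less in gvs1-1 (limma adjusted p = 0.003 and 0.0038). Their part in the photosynthesis and wax results was not tested. Of 16 cuticle and wax genes 2 were higher, 1 was lower and 5 aged alike, and 0 were called with the block. Among them LACS1, a long-chain acyl-CoA synthetase gene, went from -1.09 to -0.28. None of 4 flower and 3 seed markers was well above background on all arrays, although the flower gene PI (-0.996) and the seed gene EM6 (-3.08) were called. The block, at -1.05 and -3.24, ended both calls (adjusted p = 0.12 and 0.13). Of 4 root markers only SHR was called (0.73 ± 0.14, limma adjusted p = 0.007), a gene that leaves also express. Aquaporins, which reflect expansion as well as water transport, had 2 higher, 0 lower and 5 ageing alike of 17, and 0 called and 1 ageing alike with the block. The higher ones were PIP1;5 (1.3 without and 1.34 with the block) and TIP1;2 (0.81 and 0.95). Without the block the aquaporin shares, 11.76% higher and 29.41% alike, were near the 8.29% and 31.6% over all loci.

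**Figure D5:**
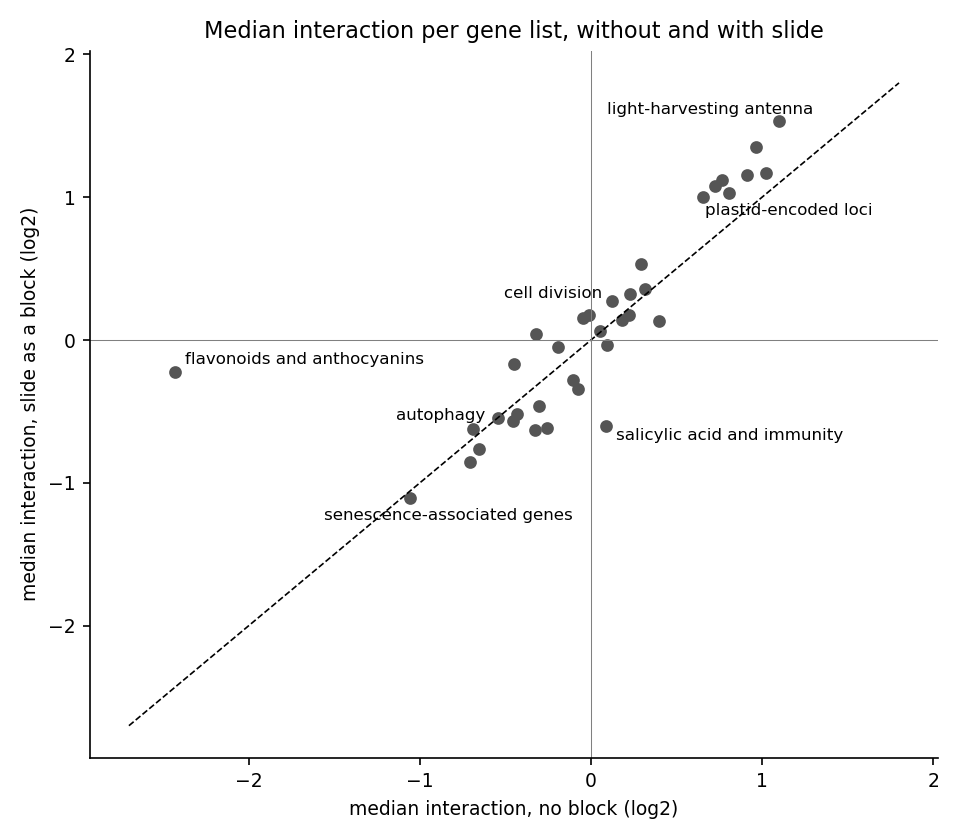
Median interaction of each gene list (log2) without a block (x axis) and with slide as a fixed block (y axis), 1 point per list, with a dashed line of equality. Photosynthesis and plastid lists lie above the line at 0.66 to 1.1 on the x axis, senescence-associated genes lie on it near -1.06, flavonoids move from -2.43 to -0.22 and the salicylic acid list from 0.09 to -0.60.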

How the data were processed

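Total RNA of 12 leaf samples was labelled with Cy3 and hybridised to 1-colour Agilent arrays, per the labels' protocols. The authors deposited a locus table of log2 values, per the labels and the values, and scanner files of linear intensity read with Agilent Feature Extraction 11.5.1.1, per the file headers. No source used here states how the table was scaled. Its array medians lay between 8.86 and 8.91, and its lowest values are near those of raw signal without background subtraction. Group means were fitted with limma 3.58.1 in R 4.3.3 over all 21266 loci, and p-values were adjusted by Benjamini-Hochberg. The p-values rest on 1 spread per locus between biological samples, pooled over the groups of 3 and moderated across loci. Where groups spread unequally, as for SAG12 and ASPGB1, this pooled spread describes no single group. Array correlations were 0.978 to 0.994 within groups, and the number of arrays limits the precision.

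The members and gene lists were chosen with earlier results of these data known. Of 820 list entries 725 were in the table. The rules for naming took the 10 largest called interactions each way with separated arrays, and the 5 largest changes each way that aged alike. They also took the 5 largest opposite changes, the leading 2 called members and 1 alike member of each list, and a fixed panel. Array values are given for a part of these loci, and some are not described. CYCB1;1 of the panel was not well above background in Col at DAE14 and was not called (-0.13 ± 0.15, limma adjusted p = 0.58). Other loci are named as list members and were picked after their values were seen. Alternatives were other scalings, scanner intensity with several normalizations, filters on dim probes, slide, scan day and replicate number as blocks, a narrower margin for ageing alike, and leaving out each array. Same-numbered samples did not deviate together in every pair of groups (correlations -0.347 to 0.557, with 0.557, 0.379 and -0.132 between the DAE14 groups), so replicate numbers were not used to pair samples. On simulated data for the interaction, 67, 67 and 66 of 21266 loci were given changes of 0.5, 1 and 2 on the log2 scale. These were called with the right sign in 4.48%, 41.8% and 87.9% of cases. All other simulated loci aged as in Col, whereas 18.0% of loci were called in the data. The adjusted p depends on that share, so these rates do not measure recovery in the data. Promoter sequence was not used here.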

Additional observations from a re-analysis of the deposited data

Results flagged for a closer look

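The age changes differed between the genotypes by the interaction test itself at 1762 loci with a higher and 2062 with a lower value in gvs1-1, and over the loci that moved with stage the ratio of summed age changes was 0.704.

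Among 132 named loci, 10 had age changes that ran in opposite directions on every array pair. All 10 had been named by rules that required a called interaction, so their calls add no support. Over all loci the interaction was called at 18.0%, and age changes were called in opposite directions at 0.409%. The gvs1-1 age change was not called for MC9, NRT1.5, PAB1, GGT1 and IAA3, and the Col one was not for RVE4 (limma adjusted p = 0.067 to 0.28). MC9, the metacaspase, had an interaction of -3.38. The sugar transporter SWEET2 was at -2.35, PGSIP7 at -1.90, CYP71B22 at -1.94 and the transporter UMAMIT10 at -1.71. The nitrate transporter NRT1.5 was at -2.10 and the proteasome subunit PAB1 at -0.46. The 3 that were lower at DAE28 in Col and higher in gvs1-1 were the photorespiratory aminotransferase GGT1 at 0.67, the auxin repressor IAA3 at 1.57 and the clock factor RVE4 at 0.89. With slide as a block MC9, NRT1.5, IAA3 and RVE4 were still called, and SWEET2, PGSIP7, CYP71B22, UMAMIT10, PAB1 and GGT1 were not. Groups of 3 arrays were not screened for single outlying arrays.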

How the results depend on the processing

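Every one of the 3824 called loci kept its sign with slide or scan day as a block, within scan day 1 and without each array in turn. The interaction estimates with either block equal those within scan day 1, so these settings are a single check. The loci were called on these same arrays, so a sign kept in any of these settings is no independent check. The counts were more fragile. With slide as a block 753 loci were higher and 633 lower, with scan day as a block 641 and 430, and within scan day 1 alone 1020 and 851. Leaving out 1 array gave 1041 to 2548 higher and 1319 to 2667 lower loci. The counts were 1049 and 1319 without Col DAE14 replicate 1, 1041 and 1362 without gvs1-1 DAE14 replicate 2, and 1101 higher without Col DAE14 replicate 3. Slides hold the groups unevenly, so slide and the interaction cannot be fully told apart, and no slide held all 4 groups for a value of its own.

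The relative size of ageing was 0.631 with slide as a block (exact permutation p = 0.035), 0.705 with the replicate block (p = 0.08) and 0.661 within scan day 1 (p = 0.0625, the smallest its 16 arrangements allow). It was 0.661 to 0.725 without each array. The exact p was 0.05, not under the threshold, without Col DAE14 replicate 1 or 3 or gvs1-1 DAE14 replicate 2 or 3. With the replicate block 1571 loci were higher and 1812 lower, and 6612 aged alike. The number of loci that aged alike was 3826 with a margin of 1.5-fold.

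Of 85 named loci that were called, 34 were not called with slide as a block, 8 not in scanner values scaled to the 75th percentile and 20 not without at least 1 array, and none changed sign in these settings. The loci that lost the call without at least 1 array include CA2, OFP15, GASA6, TI1, ASPGB1, DMP1, CSD1, PAB1, CYP94B3, BGAL4, PIP1;5, TIP1;2, LACS1, TGG2 and RBCS1A. CCA1, which missed the threshold, was called in 8 of 26 alternatives. Of 39 named loci that aged alike, 0 were called by limma with slide as a block and 1, RPE, in scanner values scaled to the 75th percentile. Among called loci 46.1% were higher in the deposited values, 53.8% in scanner values scaled to the 75th percentile and 56.5% with the mean of probes. Signal over background limits dim loci, and 16294 loci were well above it on all arrays. A planned count of promoter motifs was not run.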

Other observations

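Families of loci grouped by shared symbol, chosen after their values were seen, add to the lists. Of 54 NAC transcription factor loci 17 were lower, 0 higher and 22 aged alike, against 9.70% lower over all loci, and 4 were lower with slide as a block. Of 32 UMAMIT amino acid transporters 9 were lower, 1 was higher and 9 aged alike, and 4 were lower and 0 higher with the block. In the other direction 6 of 15 TCP transcription factors, regulators of leaf growth, were higher and 0 lower, against 8.29% higher over all loci, with median age changes of -0.57 in Col and -0.14 in gvs1-1. With slide as a block 1 TCP locus was higher. Of 27 IQD loci, encoding calmodulin-binding proteins, 8 were higher, 1 was lower and 11 aged alike, and 2 were higher and 0 lower with the block.

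Of 15 PUM loci, which encode RNA-binding proteins, 0 were called and 13 aged alike, with medians of 0.57 and 0.55, although 7 were well above background on all arrays. Of 34 SCPL loci, serine carboxypeptidase-like proteins, 9 were higher and 7 lower, and 4 and 3 with the block. These counts are descriptions of groups picked for their values and carry no test.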
